A study of Mus musculus with 4 samples.

Results

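Keratins, the intermediate filament proteins of epithelial cells, were read here at every keratin gene that the array annotation names. Members were taken by gene symbol (Krt followed by a number and at most 1 letter, so keratin-associated proteins were left out), which gave 48 genes with 61 probe sets among 18193 genes and 34945 probe sets with 1 gene name. The cells were basal interfollicular cells from mouse tail epidermis, sorted for integrin alpha 6, which anchors basal cells to the basement membrane, and against CD34, which marks stem cells of the follicle bulge. The Sox9cKO group (K14CreER:SmoM2:Sox9cKO) had a conditional knockout of Sox9, a transcription factor of hair follicle progenitors. In the SmoM2 group (K14CreER:SmoM2) Sox9 was wild type, and each group had 2 arrays. Both groups carried K14CreER, a tamoxifen-dependent Cre recombinase driven by the keratin 14 promoter of basal keratinocytes, and SmoM2, a constitutively active Smoothened that turns on Hedgehog signalling. Mice of both groups had tamoxifen (2.5 mg on 10 consecutive days) and were sampled 9 weeks after the first injection, so no array shows skin without SmoM2. The age of the mice, and whether an array came from 1 animal or a pool, are not given in the labels.

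Keratin filaments are built from pairs of a type I (acidic) and a type II (basic) chain, and each layer of the skin uses its own pairs. Basal keratinocytes make Krt5 with Krt14, and cells that leave the basal layer switch to Krt1 with Krt10. Wounded or hyperproliferative epidermis adds Krt6a, Krt6b, Krt16 and Krt17, while the hair follicle has further sets for its companion layer, its inner root sheath and the hair shaft. In bulk samples such as these, fewer cells of a type and less RNA per cell cannot be told apart.

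The targeted gene was read first. Sox9 has 3 probe sets. The brightest over all 4 arrays, at which the gene was read, measured 8.06 and 8.48 in Sox9cKO and 8.77 and 9.27 in SmoM2 on the log2 scale, lower in Sox9cKO without overlap but not called (change -0.75, gene adjusted p = 0.108, limma). A second measured 6.75 and 5.70 in Sox9cKO and 10.21 and 10.02 in SmoM2, and it was the only one of the 3 called (change -3.89, SE 0.32, adjusted p = 0.00159, limma over all probe sets). The third, dim on all arrays, had a change of -0.41 and was not called. The position of these probe sets relative to the deleted part of Sox9 is unknown here, so a probe set outside it checks nothing. Of 8 basal keratinocyte markers, a list that includes Krt5 and Krt14, none was called, but 7 had negative changes, with a median of -0.44, against 0.02 over all genes. Their mean log2 signal was 11.16 and 11.36 in Sox9cKO and 11.49 and 11.86 in SmoM2. The arrays of the genotypes did not overlap for 6 of the 8, against 47.9% of all genes. The integrin gene Itgb4 had a change of -0.69 (adjusted p = 0.0506, limma) and the hemidesmosome collagen gene Col17a1 of -0.87 (adjusted p = 0.0779). In refits, 1 marker was called lower without SmoM2 replicate 1 and 1 without Sox9cKO replicate 2. The part of this shift in the keratin changes was not tested. Itga6, which encodes the sorted integrin, measured 11.14 and 11.15 in Sox9cKO and 11.42 and 11.77 in SmoM2. Cd34, the marker sorted against, measured 3.95 and 3.75 in Sox9cKO and 4.14 and 4.15 in SmoM2, below the median of all probe sets (5.45 to 5.48 per array). Whether the replicates were separate animals is not stated, so the p-values reflect variation among these arrays, which may be technical.

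In Sox9cKO cells the companion layer keratin Krt75 and 4 of 7 inner root sheath keratins rose, as did Krt24 and Krt32, while no basal or stress keratin was called. Called here means an adjusted p under 0.05 by limma, a linear model fitted to all 18193 genes together. Of the 48 keratin genes, 7 were called higher in Sox9cKO (14.6%), against 2.66% of all genes, and none lower, against 3.53% of all genes. The 7 were Krt75, Krt24, Krt25, Krt28, Krt73, Krt71 and Krt32, and they were type I chains in 4 of 25 genes and type II chains in 3 of 23. At an unadjusted p under 0.05, 14 keratins were higher (29.2%), against 8.76% of all genes, and 5 lower (10.4%), against 9.01% of all genes. The median log2 change was 0.27 over the 48 keratins and 0.02 over all genes tested. In either direction 6.19% of all genes were called. Arrays of the genotypes did not overlap for 28 keratins (58.3%), against 47.9% of all genes. Of the 48 keratins, 21 were higher in Sox9cKO without overlap (43.8%), against 26.0% of all genes. Another 7 of the 48 were lower without overlap (14.6%), against 21.8% of all genes. At least 2-fold higher in Sox9cKO without overlap were 9 keratins (18.8%), against 1.75% of all genes. No keratin was at least 2-fold lower without overlap, against 2.41% of all genes. With 2 arrays against 2, an exact permutation test of 1 gene cannot go below p = 0.333, so the calls lean on limma's pooling of variance over the whole table. The number of keratins called higher rose without either Sox9cKO array and fell without either SmoM2 array. A lower call appeared without Sox9cKO replicate 1 and without SmoM2 replicate 2. In these refits the remaining array of a genotype was taken to have the spread of the other genotype.

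**Figure D1:**
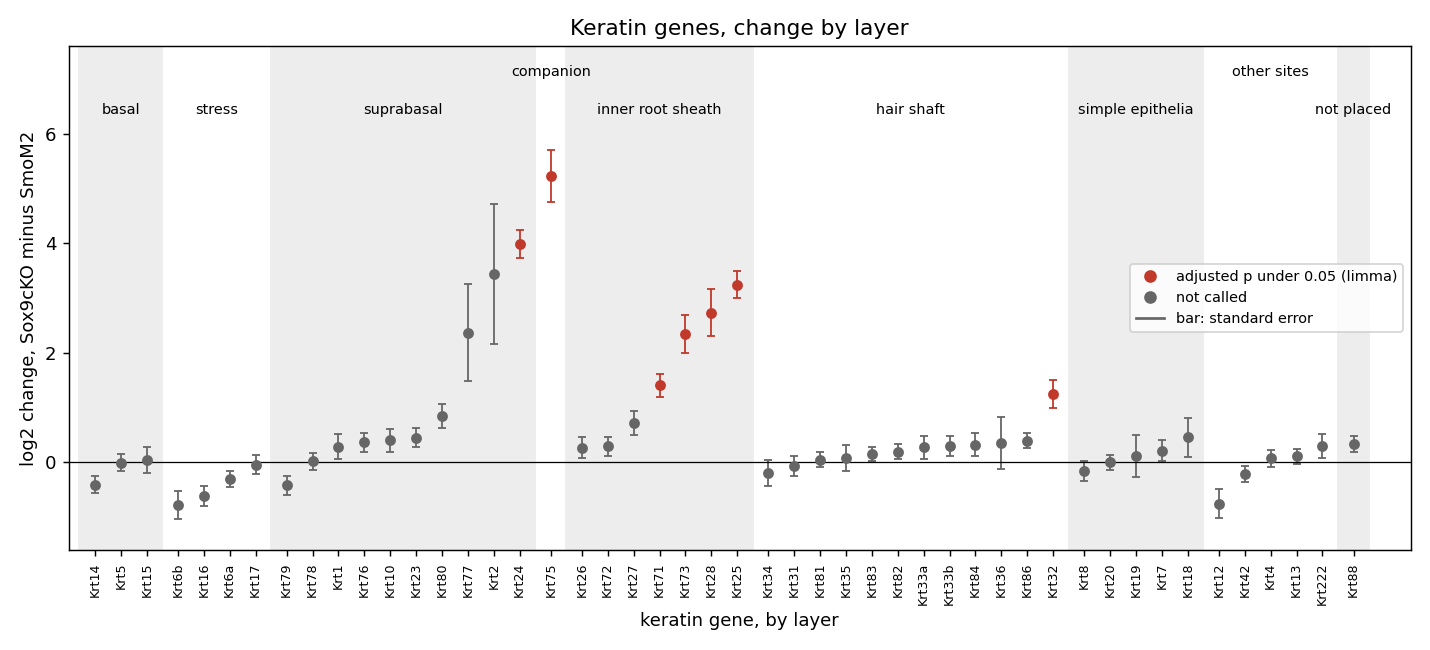
Log2 change (Sox9cKO minus SmoM2, y axis) of each of the 48 keratin genes, grouped along the x axis by layer, with bars for the standard error of limma and red points for adjusted p under 0.05. The red points are Krt75, 4 inner root sheath keratins, Krt24 and Krt32, while Krt2 and Krt77 lie high with wide bars.

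Promoter windows are shown for Krt75 and the 4 inner root sheath keratins that rose, since these genes were called in the same direction and lie in 2 gene clusters. Each window runs from 250 bases before to 50 bases after the annotated start in RefSeq's GRCm38.p6 annotation, on the minus strand and 5' to 3': Krt75 at chr15:101573855-101574154, Krt25 at chr11:99322902-99323201, Krt28 at chr11:99374854-99375153, Krt71 at chr15:101743048-101743347 and Krt73 at chr15:101802311-101802610. Capitals mark exact matches, on either strand, to TATAAA (the TATA box), AGATAA (bound by GATA factors), CTTTGAA (bound by TCF and LEF factors) or ACAATG (bound by SOX factors).
Krt75: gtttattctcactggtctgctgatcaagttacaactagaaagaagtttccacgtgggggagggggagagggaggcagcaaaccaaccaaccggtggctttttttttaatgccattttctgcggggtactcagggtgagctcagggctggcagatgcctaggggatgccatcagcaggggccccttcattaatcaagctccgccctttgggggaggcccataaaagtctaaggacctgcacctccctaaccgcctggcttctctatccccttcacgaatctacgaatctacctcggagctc
Krt25: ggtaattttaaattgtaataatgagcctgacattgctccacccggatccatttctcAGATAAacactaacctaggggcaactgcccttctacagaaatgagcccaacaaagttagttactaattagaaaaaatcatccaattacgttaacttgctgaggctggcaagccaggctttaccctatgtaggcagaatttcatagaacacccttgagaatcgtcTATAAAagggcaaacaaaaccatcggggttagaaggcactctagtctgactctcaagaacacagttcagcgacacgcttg
Krt28: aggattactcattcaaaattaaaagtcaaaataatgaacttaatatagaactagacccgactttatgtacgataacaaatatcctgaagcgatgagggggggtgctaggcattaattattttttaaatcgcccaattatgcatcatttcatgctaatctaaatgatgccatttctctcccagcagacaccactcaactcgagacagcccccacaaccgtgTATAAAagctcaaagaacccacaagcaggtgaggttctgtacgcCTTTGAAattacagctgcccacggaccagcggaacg
Krt71: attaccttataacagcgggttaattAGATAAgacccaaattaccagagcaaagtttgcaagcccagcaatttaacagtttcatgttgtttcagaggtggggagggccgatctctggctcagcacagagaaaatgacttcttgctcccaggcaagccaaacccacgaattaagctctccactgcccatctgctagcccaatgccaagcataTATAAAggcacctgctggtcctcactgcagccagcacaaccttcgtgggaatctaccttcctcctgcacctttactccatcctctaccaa
Krt73: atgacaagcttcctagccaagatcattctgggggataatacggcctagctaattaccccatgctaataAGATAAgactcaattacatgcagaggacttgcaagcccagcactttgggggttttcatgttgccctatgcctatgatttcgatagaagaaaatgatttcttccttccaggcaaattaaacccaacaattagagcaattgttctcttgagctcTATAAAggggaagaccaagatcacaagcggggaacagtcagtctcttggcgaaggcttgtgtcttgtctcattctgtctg
Krt25, Krt28 and Krt73 each hold TATAAA at position -30 from the start, and Krt71 at position -40. Krt75 holds none of the 4 motifs in this window. AGATAA stands at -194 in Krt25, -225 in Krt71 and -182 in Krt73, and CTTTGAA at 14 in Krt28. The longest run of bases that any pair of these 5 windows shares is 14 bases, ttgcaagcccagca, at -196 in Krt71 and -154 in Krt73. It is found in 2 of 32851 windows in the annotation, which are the 2 it was picked from, so the count is no separate evidence. Windows were found for 32 of the 48 keratin genes (33 windows in all). TATAAA was present in 54.5% of keratin windows and 13.6% of all windows, AGATAA in 30.3% and 11.2%, CTTTGAA in 15.2% and 5.14%, and ACAATG in 12.1% and 12.6%. Among windows of the 7 called keratins, 5 held TATAAA, 3 AGATAA, 2 CTTTGAA and none ACAATG. A match is only a string of letters, and binding was not measured.

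Krt75 had the largest change of the family. It encodes the type II keratin of the companion layer, the sheet of cells between the outer and the inner root sheath. The log2 signal was 12.18 and 10.67 in Sox9cKO replicates 1 and 2, against 6.61 and 5.80 in SmoM2 replicates 1 and 2. Both Sox9cKO arrays lay far above both SmoM2 arrays, with the Sox9cKO arrays 1.51 apart. The mean was 11.42 ± 1.07 in Sox9cKO and 6.20 ± 0.58 in SmoM2 (SD, n = 2 each), a change of 5.22 (SE 0.47, 95% interval 4.11 to 6.33, 37.3-fold, limma adjusted p = 0.00126). The fold was 22.0 without Sox9cKO replicate 1 and 63.0 without Sox9cKO replicate 2, and the call held with any 1 array left out. Krt75 has neighbours on chromosome 15 that did not share this change: Krt6b, the keratin gene next to it in the annotation among those measured, had a change of -0.78 and Krt82, on its other side, 0.20.

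All 7 measured inner root sheath keratins had a positive change, against 9774 of 18193 genes tested. Of the 7, 4 were called higher, against 2.66% of all genes, and the median change was 1.41. The inner root sheath is the rigid tube that moulds the growing hair, and its cells pair type I chains (Krt25, Krt26, Krt27, Krt28) with type II chains (Krt71, Krt72, Krt73). Krt25 measured 7.95 and 7.59 in the Sox9cKO arrays, against 4.89 and 4.16 in the SmoM2 arrays. These groups were well separated, and the change was 3.24 (SE 0.25, 9.48-fold, adjusted p = 0.000713, limma). Krt28 measured 8.20 and 6.77 in Sox9cKO and 5.02 and 4.49 in SmoM2, a change of 2.73 (SE 0.42, adjusted p = 0.0111). Its groups did not overlap, and Sox9cKO replicate 1 was the higher of its pair. Krt27 measured 6.58 and 5.94 in Sox9cKO and 5.46 and 5.62 in SmoM2, without overlap but below the threshold (change 0.72, adjusted p = 0.123). Krt26 overlapped between the groups, at 4.63 and 4.19 in Sox9cKO and 4.01 and 4.27 in SmoM2.

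On the type II side, Krt73, a keratin of the sheath cuticle in human follicles, measured 6.71 and 7.88 in Sox9cKO and 5.09 and 4.82 in SmoM2 (change 2.34, SE 0.34, adjusted p = 0.00874, limma). Here Sox9cKO replicate 2 was the higher of the pair, unlike Krt28. Krt71, a keratin found across the sheath layers, measured 7.33 and 6.70 in Sox9cKO and 5.64 and 5.58 in SmoM2, without overlap (change 1.41, SE 0.21, 2.65-fold, adjusted p = 0.00953). Krt72 measured 5.76 and 5.38 in Sox9cKO and 5.35 and 5.20 in SmoM2 (change 0.29, adjusted p = 0.446). The SmoM2 signals of Krt25, Krt28 and Krt73 lay under the median of all probe sets on both arrays, so their folds rest on dim signals. The call of Krt25 held with any 1 array left out. Without SmoM2 replicate 1 or 2, the adjusted p was 0.0545 and 0.0990 for Krt28, 0.0571 and 0.0857 for Krt73, and 0.0681 and 0.0821 for Krt71. With a robust prior that follows signal strength, the adjusted p of Krt28 was 0.0701, and its fold was 4.06 without Sox9cKO replicate 1 and 10.9 without Sox9cKO replicate 2, against 6.65 with all arrays. For Krt73 the fold was 7.62 and 3.38 in the same order, against 5.07.

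**Figure D2:**
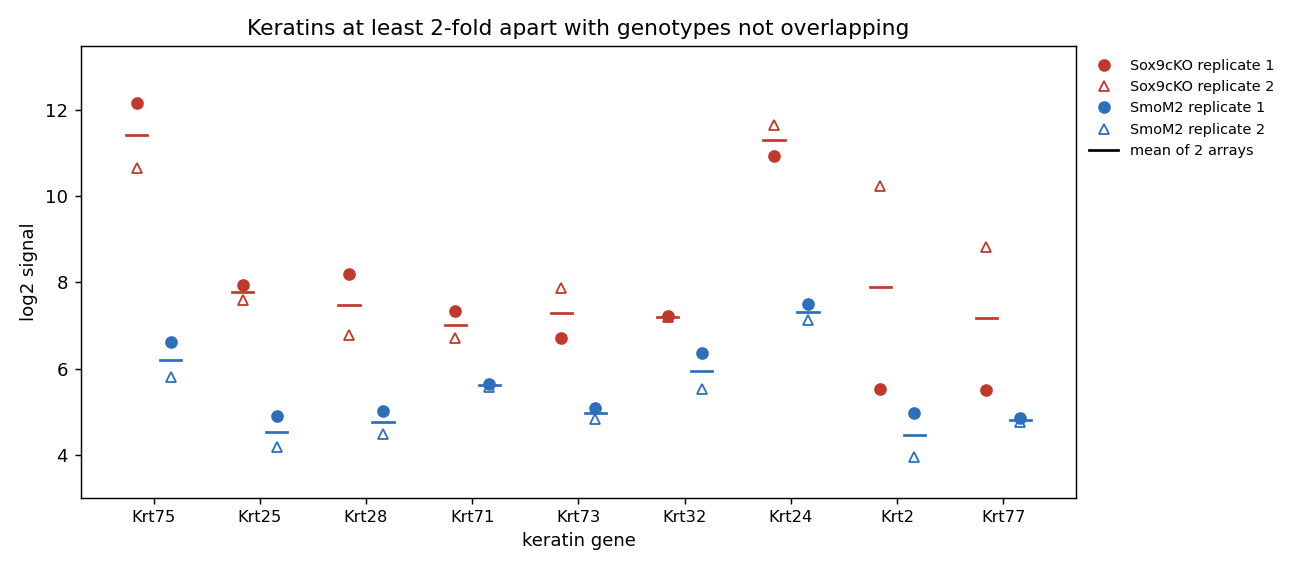
Log2 signal (y axis) on each of the 4 arrays for the 9 keratins (x axis) that were at least 2-fold apart with genotypes not overlapping, with short lines for the mean of 2 arrays. The Sox9cKO arrays lie above the SmoM2 arrays for each gene, and for Krt2 and Krt77 Sox9cKO replicate 2 stands far above Sox9cKO replicate 1.

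Markers of the inner root sheath and hair matrix that are not keratins had positive changes in 10 of 11 measured genes, against 9774 of 18193 tested. The member without one was Hoxc13 (change -0.14). This list was chosen with earlier results of these data known, so its counts are a description and no independent support. Of 11 measured markers of the inner root sheath and hair matrix, 8 were called higher and none lower, against 2.66% and 3.53% of all genes, with a median change of 1.48. Their mean log2 signal was 8.30 and 7.77 in the Sox9cKO arrays, against 6.69 and 6.69 in the SmoM2 arrays. Of the 8, Tchh, Cux1, Foxn1, Msx2, Gata3 and Dlx3 also stand in the lists of linkers and regulators described further on. The number called was 6 without either SmoM2 array, 7 without Sox9cKO replicate 1 and 9 without Sox9cKO replicate 2. The part of such cells in the keratin changes was not tested.

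The hair shaft keratins were mostly not called. These are the hard, cysteine-rich chains of the cortex and cuticle of the hair fibre. Of 12 measured members, 1 was called higher, against 2.66% of all genes. The median change of the 12 was 0.24, with a range of -0.20 to 1.26. The median was 0.43 without SmoM2 replicate 1, 0.057 without SmoM2 replicate 2 and 0.15 without Sox9cKO replicate 2. That member was Krt32, a type I keratin of the hair cuticle in human follicles, at 7.23 and 7.19 in Sox9cKO and 6.37 and 5.53 in SmoM2. The Sox9cKO arrays were nearly equal and lay above both SmoM2 arrays (change 1.26, SE 0.26, 2.39-fold, adjusted p = 0.0331, limma). The adjusted p of Krt32 was 0.0755 without SmoM2 replicate 2, 0.0883 without Sox9cKO replicate 1 and 0.0818 without Sox9cKO replicate 2. Of the rest, Krt31, Krt33a, Krt34, Krt35, Krt82 and Krt86 lay under the median of all probe sets on all 4 arrays, and Krt81, Krt83, Krt33b and Krt84 had changes of 0.048, 0.16, 0.30 and 0.32. Krt36, also a scale keratin of mouse tail, measured 5.24 and 6.52 in Sox9cKO and 6.10 and 4.93 in SmoM2, so its groups overlapped and each pair was over 1 log2 unit apart.

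Suprabasal keratins had positive changes in 9 of 10 genes, against 9774 of 18193 genes tested, with a median of 0.42. Of the 10, only Krt24 was called, against 2.66% of all genes called higher. Krt24, a type I keratin of differentiating keratinocytes, measured 10.94 and 11.67 in Sox9cKO and 7.50 and 7.14 in SmoM2. The groups were separated by over 3 log2 units, a change of 3.99 (SE 0.25, 15.9-fold, adjusted p = 0.000446, limma), and the call held with any 1 array left out. Its gene lies next to Krt25 on chromosome 11. The early differentiation pair did not pass: Krt10 measured 13.07 and 13.66 in Sox9cKO and 12.98 and 12.94 in SmoM2 (change 0.40, adjusted p = 0.376), and Krt1 measured 12.54 and 12.86 in Sox9cKO and 12.72 and 12.11 in SmoM2 (change 0.28, adjusted p = 0.609). Krt10 did not overlap between groups and Krt1 did. Both lay above the upper quartile of all probe sets (7.71 to 7.75 per array) on all 4 arrays, although the sort was for basal cells. Krt79, a keratin of the follicle infundibulum, measured 12.27 and 12.69 in Sox9cKO and 12.93 and 12.87 in SmoM2 (change -0.42, adjusted p = 0.259). Krt80 measured 8.10 and 8.69 in Sox9cKO and 7.70 and 7.38 in SmoM2 (change 0.85, adjusted p = 0.0752). Krt23, Krt76 and Krt78 had changes of 0.45, 0.36 and 0.022, and Krt23 and Krt76 lay under the median of all probe sets on all 4 arrays.

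Krt2 and Krt77 were high in 1 array. Krt2, a type II keratin of late suprabasal cells, measured 5.53 and 10.24 in Sox9cKO replicates 1 and 2, against 4.96 and 3.93 in the SmoM2 arrays. Krt77, its type II relative of suprabasal cells in the mouse, measured 5.51 and 8.82 in Sox9cKO and 4.85 and 4.75 in SmoM2. In both genes only Sox9cKO replicate 2 stood clear of the other 3 arrays, and neither was called (changes of 3.44 and 2.37, SE 1.28 and 0.89, adjusted p = 0.212 and 0.214, limma). Without Sox9cKO replicate 1 both passed (5.80 and 4.03, adjusted p = 0.000363 and 0.000139), and without Sox9cKO replicate 2 the changes were 1.08 and 0.71. Krt2 and Krt77 lie on either side of Krt1 on chromosome 15, and Krt1 did not share the high value.

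**Figure D3:**
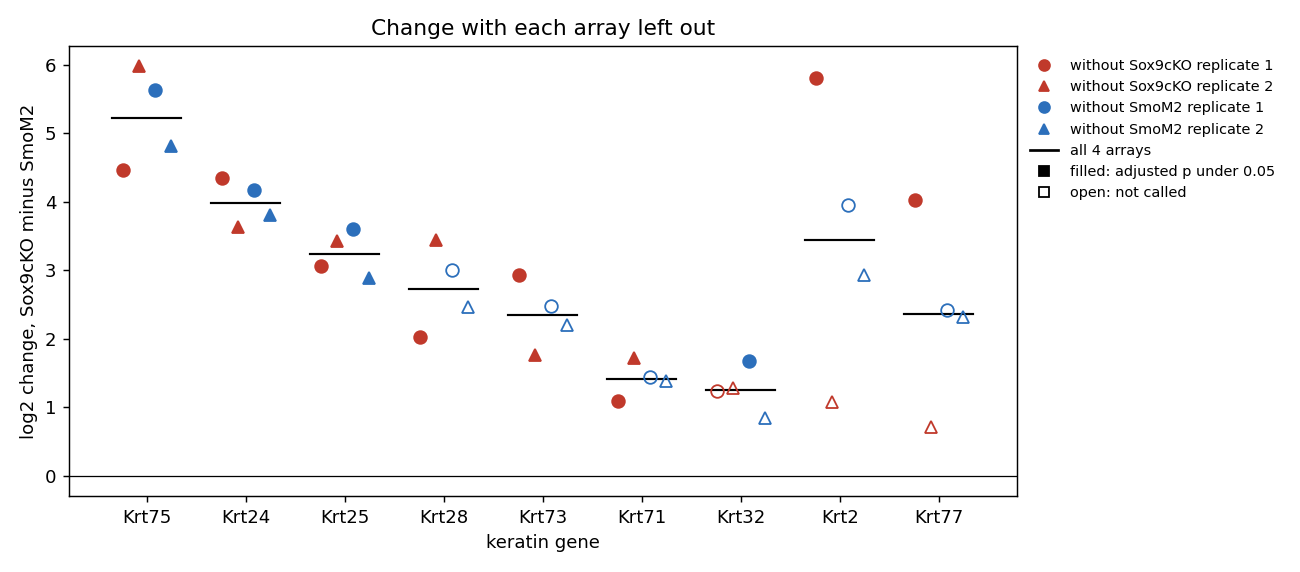
Log2 change (Sox9cKO minus SmoM2, y axis) of 9 keratins (x axis) with each array left out in turn, filled where adjusted p was under 0.05, and a black line for all 4 arrays. Krt75, Krt24 and Krt25 stayed called in all 4 refits, while Krt2 and Krt77 ranged from 1.08 to 5.80 and from 0.71 to 4.03.

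No basal keratin was called, with changes of -0.41 to 0.039. Krt5, the type II chain of basal cells, measured 13.20 and 13.40 in Sox9cKO and 13.20 and 13.41 in SmoM2, which overlap fully (change -0.0046, 95% interval -0.36 to 0.35). Krt14, its type I partner, measured 13.15 and 13.30 in Sox9cKO and 13.51 and 13.76 in SmoM2. The Krt14 arrays did not overlap and were lower in Sox9cKO at all 3 probe sets (changes of -0.41, -0.37 and -0.75), but none was called (gene adjusted p = 0.209, limma). At the brightest of them the 95% interval, not adjusted for the number of genes, was -0.77 to -0.053. Krt15, a basal keratin that is enriched in bulge stem cells, measured 12.14 and 11.38 in Sox9cKO and 11.69 and 11.75 in SmoM2, with the Sox9cKO arrays on either side of the SmoM2 arrays (change 0.039, 95% interval -0.52 to 0.60).

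Stress keratins had negative changes in all 4 genes, with a median of -0.46, and none was called. The median was -0.29 without SmoM2 replicate 2 and -0.30 without Sox9cKO replicate 2. Krt6b measured 12.84 and 12.06 in Sox9cKO and 13.09 and 13.38 in SmoM2 (change -0.78, adjusted p = 0.157, limma). Krt16 measured 12.49 and 12.37 in Sox9cKO and 12.82 and 13.26 in SmoM2 (change -0.61, 95% interval -1.03 to -0.19, adjusted p = 0.111). Krt6a measured 13.51 and 13.33 in Sox9cKO and 13.62 and 13.83 in SmoM2, and its 3 probe sets had changes of -0.30, -0.44 and -0.48. In each of these 3 genes both Sox9cKO arrays lay below both SmoM2 arrays, as they did for 21.8% of all genes. The change of Krt6b was -1.18 without Sox9cKO replicate 1 and -0.39 without Sox9cKO replicate 2. Krt17 overlapped, at 13.22 and 13.48 in Sox9cKO and 13.23 and 13.56 in SmoM2 (change -0.046). A dimmer probe set of Krt17 measured 5.12 and 7.65 in Sox9cKO and 7.55 and 4.90 in SmoM2, with the replicates of each genotype over 2 log2 units apart. Krt6a and Krt6b are close relatives, as are Krt14, Krt16 and Krt17, so probe sets may read more than 1 of them.

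**Figure D4:**
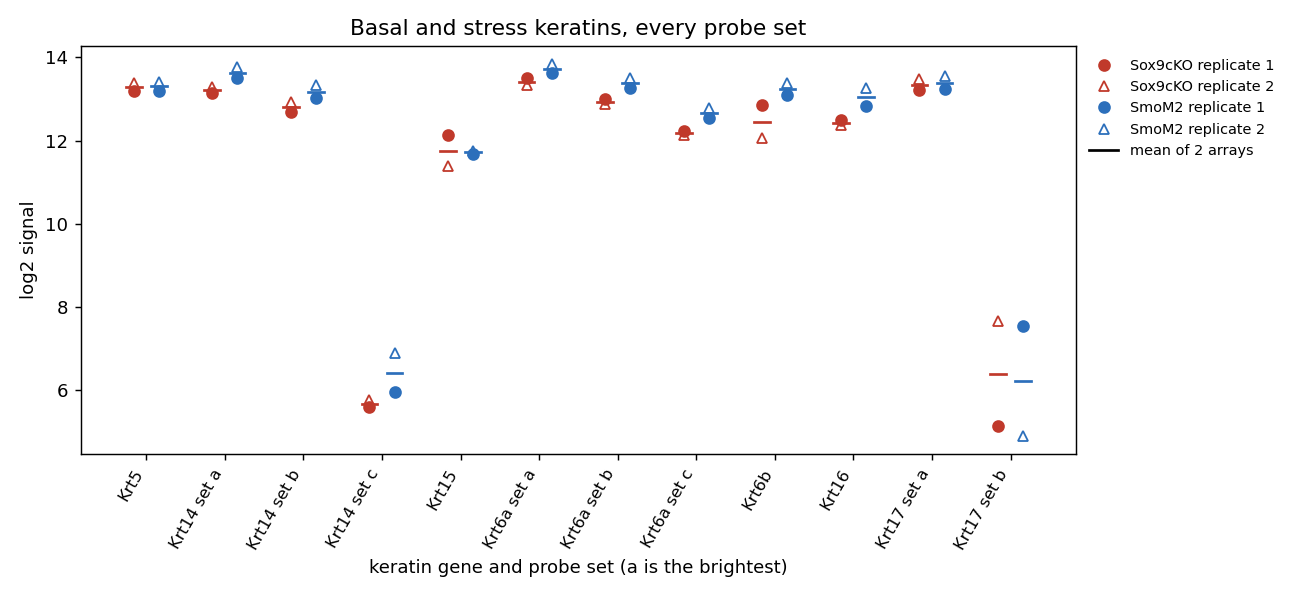
Log2 signal (y axis) on each array at every probe set of the basal and stress keratins (x axis, set a being the brightest of a gene), with short lines for the mean of 2 arrays. Krt14, Krt6a, Krt6b and Krt16 lie lower in Sox9cKO without overlap, Krt5 and Krt17 set a overlap, and Krt17 set b splits within each genotype.

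Keratins of simple epithelia were not called. The pair of single-layered epithelia, Krt8 and Krt18, is also made by Merkel cells together with Krt20. Krt18 measured 7.67 and 6.47 in Sox9cKO and 6.44 and 6.77 in SmoM2 (change 0.46, adjusted p = 0.598, limma), with 1 high array, and it passed without Sox9cKO replicate 2 (change 1.07, adjusted p = 0.0301), while without Sox9cKO replicate 1 its change was -0.14. Krt19, a keratin of the bulge and of simple epithelia, measured 6.64 and 5.34 in Sox9cKO and 6.03 and 5.71 in SmoM2, again highest in Sox9cKO replicate 1. Krt8 measured 5.04 and 5.49 in Sox9cKO and 5.40 and 5.45 in SmoM2 at its brightest probe set. Its other probe sets were lower in Sox9cKO without overlap and not called (changes of -0.50 and -0.24). Krt7 was under the median of all probe sets on all 4 arrays. Krt20 measured 4.03 and 4.18 in Sox9cKO and 4.18 and 4.04 in SmoM2, with no difference beyond its spread. Krt4, Krt13, Krt42 and Krt222 had changes of -0.20 to 0.29 and were not called. Krt12, the keratin of the cornea, measured 4.29 and 4.18 in Sox9cKO and 5.43 and 4.55 in SmoM2 (change -0.75, adjusted p = 0.190), and it passed without SmoM2 replicate 2 (change -1.19, adjusted p = 0.0293), while without SmoM2 replicate 1 its change was -0.31.

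The called keratins were spread over both clusters. Type I genes lie on chromosome 11 and type II genes, with Krt18, on chromosome 15. On chromosome 11 the order among measured genes was Krt24, Krt25, Krt26, Krt27, Krt28 and Krt10, of which Krt24, Krt25 and Krt28 were called and the genes between them were not. On chromosome 15 the order was Krt75, Krt6b, Krt6a, Krt5, Krt71, Krt72, Krt73 and Krt2, with Krt75, Krt71 and Krt73 called. In both stretches uncalled genes lay between called ones.

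**Figure D5:**
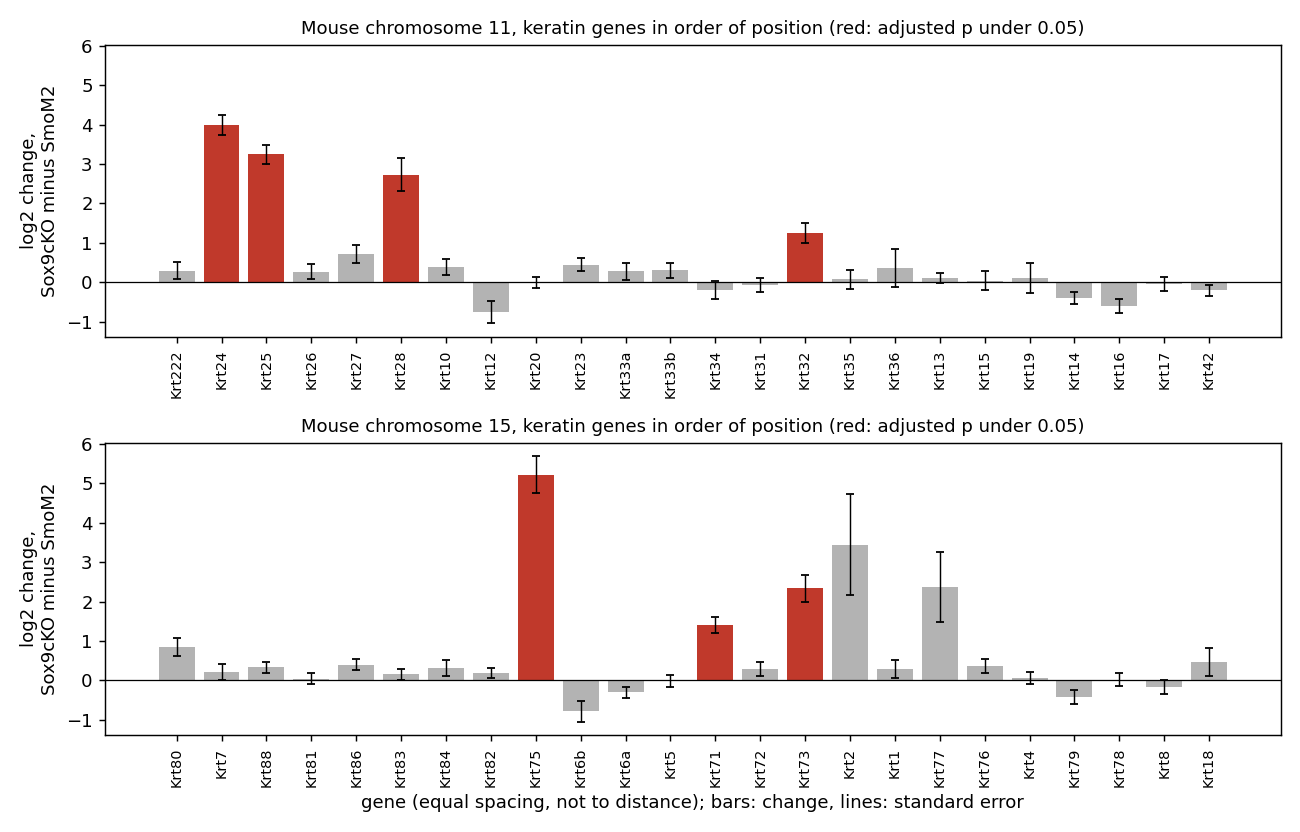
Log2 change (Sox9cKO minus SmoM2, y axis, bars with lines for the standard error) of keratin genes in their order along chromosomes 11 (top) and 15 (bottom), red where adjusted p was under 0.05. Krt24, Krt25 and Krt28 stand up with low bars for Krt26 and Krt27 between them, and Krt75 stands next to Krt6b, at -0.78.

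Some keratins differed widely between replicates. The 2 Sox9cKO arrays were at least 1 log2 unit apart for 8 of 48 keratins, against 1.06% of all genes, and the 2 SmoM2 arrays for 2 of 48, against 0.517% of all genes. Of the 8, Krt75, Krt28, Krt18 and Krt19 were higher in Sox9cKO replicate 1, and Krt73, Krt2, Krt77 and Krt36 in Sox9cKO replicate 2. This is a description of the arrays, with no test.

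Proteins that bind or bundle keratins were called at 4 of 19 measured genes, all higher, against 2.66% of all genes, while the desmosome and plakin genes of the list (Dsp, Jup, Pkp1, Plec) were not. Trichohyalin (Tchh), which cross-links keratins in the inner root sheath, measured 7.94 and 7.75 in Sox9cKO and 5.86 and 6.26 in SmoM2 (change 1.78, adjusted p = 0.00179, limma). Repetin (Rptn) had a change of 1.98, hornerin (Hrnr) of 2.54 and filaggrin (Flg), which bundles keratins in the upper epidermis, of 1.82. Hrnr, at 5.59 and 6.97 in Sox9cKO and 3.54 and 3.93 in SmoM2, and Flg, at 7.32 and 8.43 in Sox9cKO and 6.27 and 5.85 in SmoM2, were both higher in Sox9cKO replicate 2, like Krt2 and Krt77. Without SmoM2 replicate 1 or 2 the adjusted p was 0.101 and 0.0710 for Hrnr and 0.0886 and 0.163 for Flg, which left 2 calls in each refit.

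The list of regulators known to act on keratin genes or their layers held transcription factors and the receptor gene Notch1. Of its 25 members, 6 were called higher and 2 lower, against 2.66% and 3.53% of all genes. Cux1, a homeobox factor needed for the inner root sheath, measured 10.82 and 10.38 in Sox9cKO and 7.86 and 8.03 in SmoM2 (change 2.65, adjusted p = 0.000481, limma). Pou3f1, a POU factor of differentiating epidermis, had a change of 1.78 and Foxn1, the factor lost in nude mice, of 1.65. Msx2, a hair matrix homeobox factor, measured 7.51 and 7.14 in Sox9cKO and 5.92 and 5.72 in SmoM2 and was also called (adjusted p = 0.00315). The members called lower, named after their values were seen, were Grhl3 (change -1.05, adjusted p = 0.0270), an epidermal barrier factor, and the vitamin D receptor gene Vdr (change -0.72, adjusted p = 0.0451). Neither was called without SmoM2 replicate 1 or 2, where the adjusted p was 0.0799 and 0.168 for Grhl3 and 0.166 and 0.199 for Vdr. Without Sox9cKO replicate 1 the adjusted p of Vdr was 0.177, and without Sox9cKO replicate 2 that of Grhl3 was 0.0850. Trp63, the master factor of basal keratinocytes, was not called (change 0.12).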

How the data were processed

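Each of 4 Affymetrix arrays, 2 per genotype, was hybridised with material from 100 ng of total RNA each, per the labels' protocols. The deposited values are on a log2 scale, as read from their range. How the authors summarised and normalized them is not stated in any source used; the submitters' processing notes list R 2.14.0. Array medians were nearly equal, so a shift shared by most genes would not be seen. No read depth exists for arrays, and their number limits the precision.

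Symbols came from the platform annotation, and 34741 were matched by entrez ID to RefSeq; 932 probe sets naming several genes (1 of them shared by Krt17 and Krt14), 64 controls and 9211 probe sets not listed (controls included) were left out. A gene was read at its brightest probe set (mean of all arrays). Genotypes were compared with limma 3.58.1 in R 4.3.3 (lmFit, eBayes, two-sided, no covariate, 7.17 degrees of freedom with the prior), adjusted by Benjamini-Hochberg over all 18193 genes. Keratins were named as fixed in the design: full array values for those called, those at least 2-fold apart without overlap and 18 layer-defining genes, with others as needed. Members, layers and lists were chosen with earlier results of these data known. The annotated keratin genes Krt9, Krt39, Krt40, Krt74, Krt87 and Krt90 were not analysed here. Replicate numbers are shared between genotypes, but differences between replicates correlated at only 0.09, so no pairing was used. Alternatives changed the probe set rule, the prior, the scaling, a filter on dim genes, the block and the arrays used.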

Additional observations from a re-analysis of the deposited data

How the results depend on the processing

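The 7 higher calls were 7 with probe sets averaged per gene, without _x_at and _s_at probe sets, with every probe set tested and under both rescalings, and 6 with an intensity trend and robust prior. With dim genes left out the count was 3, since Krt25, Krt28, Krt71 and Krt73 were then not tested. With an array left out it ranged from 3 to 9, and keratins called lower from 0 to 1. Over all genes, higher calls ranged from 199 to 404 and lower calls from 335 to 502 with an array left out. The main fit used no pairing by replicate number. With a replicate block the counts were 11 keratins higher and 3 lower, and 879 genes higher and 1040 lower. Krt2, Krt77, Krt27 and Krt80 were then added among the higher and Krt6b, Krt16 and Krt12 among the lower. Layer medians with an array left out ranged from -0.34 to 0.071 for basal, 1.10 to 1.72 for inner root sheath, 0.057 to 0.43 for hair shaft (lowest without SmoM2 replicate 2, highest without SmoM2 replicate 1), -0.62 to -0.29 for stress (in the reverse order of those arrays), 0.44 to 0.57 for suprabasal and -0.044 to 0.28 for simple epithelia keratins. With dim genes left out the medians of the remaining members were 0.65 for hair shaft and 0.46 for simple epithelia keratins.

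Of 266 comparisons of single keratins with an alternative, 231 kept direction and call, 10 lost the call, 10 gained it and 15 turned sign, all of the last among uncalled genes with small changes. Those were Krt17 with its probe sets averaged (0.059), Krt5 and Krt20 with each array centred on its median (0.0066 and 0.0086), and, with an array left out, Krt1 (-0.021 to 0.59), Krt15 (-0.34 to 0.42), Krt17 (-0.21 to 0.12), Krt18 (-0.14 to 1.07), Krt19 (-0.53 to 0.77), Krt20 (-0.078 to 0.073), Krt5 (-0.11 to 0.10) and Krt8 (-0.38 to 0.064). Signals near the array's lower end and the small number of arrays limit what dim keratins can show.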

Other observations

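A probe set annotated to both Krt17 and Krt14, left out of the comparison, measured 5.51 and 5.78 in Sox9cKO and 5.45 and 5.34 in SmoM2. Krt88, a rodent keratin without a layer here, measured 6.18 and 6.02 in Sox9cKO and 5.77 and 5.76 in SmoM2 (change 0.33, limma adjusted p = 0.262). Of 8 Merkel cell markers that are not keratins, 1 was called lower and none higher, against 3.53% and 2.66% of all genes. The median change of this list was -0.031. The member called was Sox2, at 3.98 and 3.15 in Sox9cKO and 6.72 and 6.81 in SmoM2 (change -3.20, adjusted p = 0.000831, limma). The Merkel keratin Krt20 was at 4.03 and 4.18 in Sox9cKO and 4.18 and 4.04 in SmoM2. The sebocyte markers had 2 of 9 members called lower, against 3.53% of all genes. Their mean log2 signal was 7.14 and 6.97 in Sox9cKO and 8.32 and 7.51 in SmoM2. Their median change was -0.87, with -0.28 without SmoM2 replicate 1 and -1.39 without SmoM2 replicate 2. Of 8 bulge stem cell markers, which include Sox9 and Krt15, 1 was called higher and 3 lower, against 2.66% and 3.53% of all genes. Without SmoM2 replicate 1 or 2 the counts were 0 higher and 1 lower, and without Sox9cKO replicate 1 they were 0 higher and 2 lower. In T cell and fibroblast lists 1 marker each was called higher, Thy1 of 6 measured and Dcn of 8 measured, against 2.66% of all genes. The median changes of these lists were 0.17 and 0.16. None was called, against 6.19% of all genes, in the lists for melanocytes, myeloid cells, endothelium, smooth muscle, skeletal muscle and erythroid cells (3 measured). Their median changes, in this order, were 0.24, 0.23, -0.017, -0.17, 0.040 and 0.011, against 0.02 over all genes.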
